A study of Mus musculus with 9 samples.

Results

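The 8 genes described here carry a signal from ligands of the interleukin-6 family through the shared receptor subunit gp130 to the transcription factor STAT3. They are Lif and Clcf1 for the ligands, Lifr, Il6st, Osmr and Il6ra for the receptor chains, Stat3 for the transcription factor, and Socs3 for its feedback inhibitor. They were chosen by gene symbol for their place in the pathway, with earlier results of these data known. All 8 were found among the 25108 genes and gene models of the table. The samples are retinas of the C57BL/6 strain taken on postnatal day 17, sequenced as 3 RNA libraries per group and 9 in all. The groups were IL-19 knockout mice with oxygen-induced retinopathy (OIR KO), wild-type mice with oxygen-induced retinopathy (OIR WT) and wild-type mice raised in room air (RA WT). In this model young pups breathe high oxygen, which stops and prunes their retinal vessels, and the poorly perfused retina becomes hypoxic once they are back in room air. All 3 groups share strain, age and tissue. None of the 9 libraries came from room-air knockouts, which limits the genotype comparison to retinopathy. The labels name neither the kind of knockout allele nor the oxygen schedule. Nothing in the labels says that the samples of a group came from separate animals, so the spread behind each p-value is that between these samples and may be technical.

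Most cytokines of this family bind a receptor that contains gp130, the product of Il6st. LIF and CLCF1 bring gp130 together with the LIF receptor, oncostatin M brings it together with OSMR, and interleukin-6 first binds its own receptor chain, the product of Il6ra. Kinases of the JAK family on the receptor then phosphorylate STAT3, which moves to the nucleus and switches on its target genes, among them Socs3. The SOCS3 protein binds gp130 and the kinases and shuts the signal off. In the injured mouse retina, LIF is known as a product of Müller glia that acts on photoreceptors and glia, where it is needed for the induction of endothelin 2 and of glial fibrillary acidic protein.

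All 8 genes have an Ensembl ID in the table and a place on GRCm38 in the GENCODE M21 annotation. Lif (ENSMUSG00000034394, chr11:4257557-4272514), Stat3 (ENSMUSG00000004040, chr11:100885098-100939540) and Socs3 (ENSMUSG00000053113, chr11:117966079-117970047) lie on chromosome 11. Lifr (ENSMUSG00000054263, chr15:7090614-7197489) and Osmr (ENSMUSG00000022146, chr15:6813577-6874969) lie near each other on chromosome 15. Clcf1 (ENSMUSG00000040663) is at chr19:4214238-4223490, Il6st (ENSMUSG00000021756) at chr13:112464070-112510086 and Il6ra (ENSMUSG00000027947) at chr3:89864059-89913196. Clcf1 shares 9134 bases with a gene model on its own strand, AC109138.7, so its values are uncertain. Il6ra shares 281 bases and Stat3 72 bases with genes on the opposite strand, which cannot be told apart where counting ignores strand.

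The promoters of Lif, Stat3 and Socs3 are shown because these genes stood higher together in retinopathy and because Socs3 is a textbook STAT3 target. The motif searched was TTCNNNGAA, which reads the same on both strands and is a known STAT binding pattern, in the 250 bases before each RefSeq start. It was found in 1 of the 7 members with a RefSeq entry (Clcf1 had none), against 2197 of 27025 genes overall (8.13%). Capitals mark the match in Socs3, TTCTTAGAA, 154 bases before the RefSeq start. The stretches printed are the parts of those windows outside any annotated exon of the gene, 5′ to 3′ on the strand of the gene, from RefSeq on GRCm38.p6. Socs3 is at chr11:117969452-117969616 on the minus strand, Stat3 at chr11:100939541-100939790 on the minus strand and Lif at chr11:4257318-4257556 on the plus strand. The Socs3 stretch lies inside the annotated span of its gene (chr11:117966079-117970047). The bases just after its RefSeq start were not found near the start of any GENCODE transcript of Socs3.
Socs3: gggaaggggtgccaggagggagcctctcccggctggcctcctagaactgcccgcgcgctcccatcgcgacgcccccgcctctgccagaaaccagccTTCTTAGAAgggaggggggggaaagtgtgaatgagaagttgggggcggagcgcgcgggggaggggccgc
Stat3: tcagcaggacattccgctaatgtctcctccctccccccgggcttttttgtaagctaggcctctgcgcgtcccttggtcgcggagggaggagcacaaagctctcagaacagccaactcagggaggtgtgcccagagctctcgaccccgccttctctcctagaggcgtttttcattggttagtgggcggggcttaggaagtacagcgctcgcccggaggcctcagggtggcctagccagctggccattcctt
Lif: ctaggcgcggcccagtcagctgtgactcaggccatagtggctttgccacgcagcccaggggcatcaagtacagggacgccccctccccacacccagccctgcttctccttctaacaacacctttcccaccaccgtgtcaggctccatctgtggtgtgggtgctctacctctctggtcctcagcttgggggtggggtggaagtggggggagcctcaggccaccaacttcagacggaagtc
A match is a stretch of letters and not a binding site, and the windows of Stat3 and Lif hold no match.

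The values are FPKM, fragments scaled by gene length and library size, as the authors deposited them, so levels can be compared between genes per length. Depth per library is unknown, since whole reads could not be recovered from the table. The best-fitting steps between low values gave relative depths between 0.853 of the mean in RA WT 2 and 1.14 in OIR KO 2. Only 39.1 to 42.7% of low values fitted those steps, so these depths are rough. Il19, the targeted gene, was listed at 0 in all 3 OIR KO and all 3 OIR WT libraries and in 2 of 3 RA WT libraries, with 0.0406 FPKM in RA WT 1, so it checks no label. The summed rod markers lay between 5890 and 8746 FPKM in OIR KO, 5933 and 7942 FPKM in OIR WT, and 7540 and 7645 FPKM in RA WT, so the rod genes of the labelled tissue were present. Libraries of 1 retinopathy group differed among themselves in this pathway. OIR KO 2 was the highest of its group for 7 of the 7 members tested, against 37.6% of all genes, and OIR WT 2 was the lowest of its group for 6 of 7, against 43.8% of all genes. Results that rest on OIR KO 2 are given below with and without it.

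**Figure D1:**
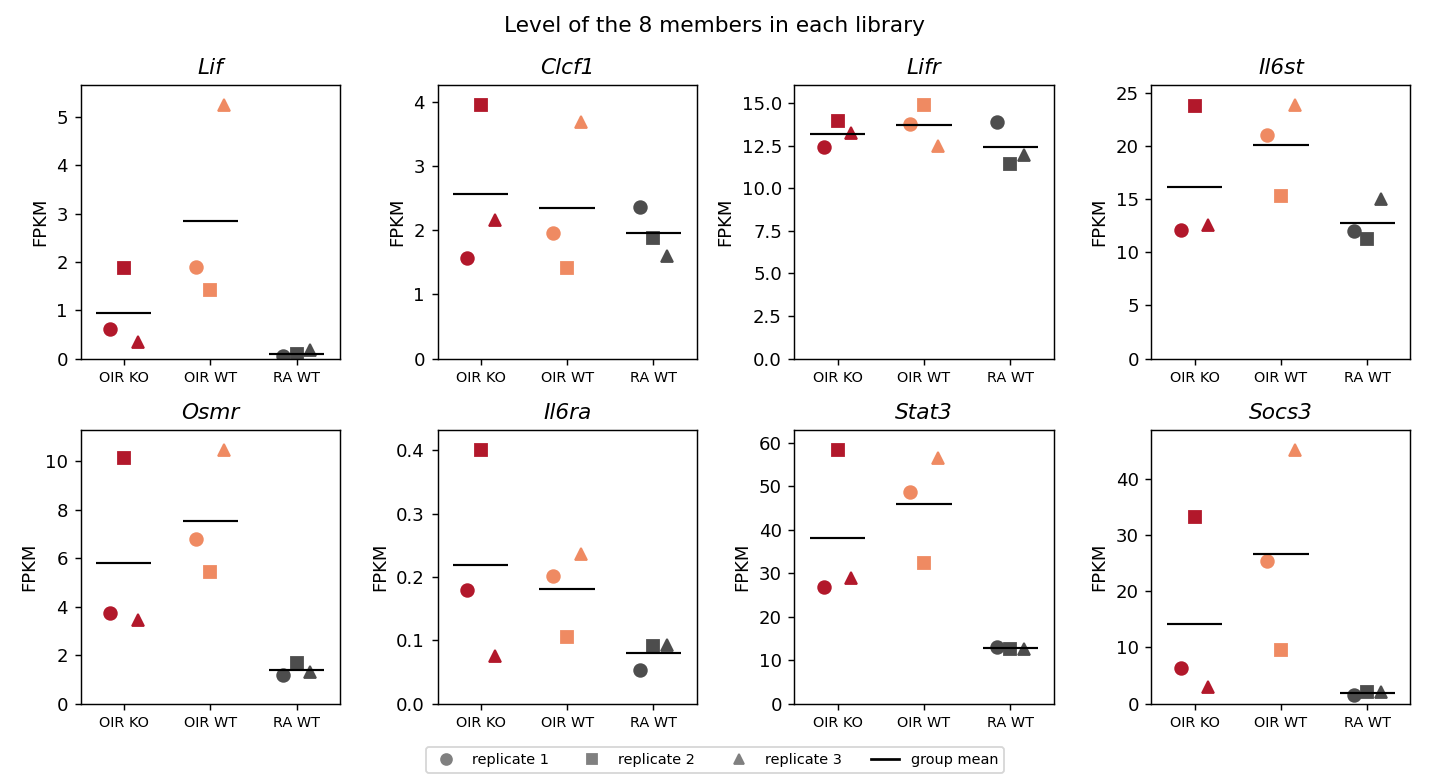
FPKM of the 8 genes (vertical axes from 0) in the 3 libraries of OIR KO, OIR WT and RA WT, with a line at each group mean. Lif, Osmr, Stat3 and Socs3 lie near the bottom in every RA WT library, Lifr hardly differs between groups, and 1 OIR KO library (replicate 2) lies above the other two of its group for every gene.

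Wild-type retinas with retinopathy held more Lif, Osmr, Stat3 and Socs3 RNA than wild-type retinas in room air, while Lifr and Clcf1 did not pass the test. With limma on log2(FPKM + 0.5) and Benjamini-Hochberg adjustment over the 15678 genes tested, 4 of the 8 members were called higher at an adjusted p under 0.05, 3 were not called, and Il6ra was too low to be tested. None was called lower. Of all genes tested, 8.04% were called higher, a share set beside members chosen with earlier results of these data known. Lif entered the test only through retinopathy libraries, since no RA WT library reached 0.5 FPKM, so it had to differ to be counted. The 3 libraries of OIR WT lay above the 3 of RA WT for 5 of the 7 members tested (Lif, Il6st, Osmr, Stat3 and Socs3), against 17.8% of all genes. In RNA from a whole retina, more cells of a type and more RNA per cell cannot be told apart.

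The ligand Lif, leukaemia inhibitory factor, had the largest ratio of means among the members. It stood at 0.610, 1.88 and 0.345 FPKM in OIR KO libraries 1, 2 and 3, at 1.90, 1.42 and 5.24 FPKM in OIR WT libraries 1, 2 and 3, and at 0.0459, 0.0852 and 0.177 FPKM in RA WT libraries 1, 2 and 3. Every retinopathy library lay above every room-air library, OIR WT 3 was the highest of all, and OIR KO 2 fell among the OIR WT libraries. The means were 0.945 ± 0.819 FPKM in OIR KO, 2.85 ± 2.08 FPKM in OIR WT and 0.103 ± 0.0671 FPKM in RA WT (SD, n = 3 each). OIR WT against RA WT gave a log2 difference of 2.31 (SE 0.46, limma adjusted p = 0.0122), on a scale that understates the change of so low a gene. The ratio of mean FPKM was 27.8. OIR KO against RA WT gave a log2 difference of 1.12 (95% interval 0.08 to 2.16), which was not called (limma adjusted p = 0.153).

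Clcf1 encodes cardiotrophin-like cytokine factor 1, which acts through a receptor of CNTFR, LIFR and gp130. It stood at 1.56, 3.94 and 2.16 FPKM in OIR KO, at 1.96, 1.40 and 3.68 FPKM in OIR WT, and at 2.36, 1.88 and 1.60 FPKM in RA WT. The groups overlapped, and both retinopathy groups spread wider than room air through 1 high library each, OIR KO 2 and OIR WT 3. The log2 difference of OIR WT against RA WT was 0.15 (95% interval -0.60 to 0.89, limma adjusted p = 0.801).

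Among the receptor chains, Lifr encodes the chain that binds LIF. It was the steadiest member, with 12.4, 13.9 and 13.2 FPKM in OIR KO, 13.8, 14.9 and 12.5 FPKM in OIR WT, and 13.9, 11.4 and 11.9 FPKM in RA WT. The groups overlapped in all 3 comparisons. Its log2 difference of OIR WT against RA WT was 0.14, with a 95% interval of -0.09 to 0.37, so larger changes than that upper bound lie outside the interval (limma adjusted p = 0.408).

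Il6st encodes gp130, the chain that most cytokines of this family share. It stood at 12.1, 23.9 and 12.6 FPKM in OIR KO, at 21.0, 15.3 and 23.9 FPKM in OIR WT, and at 12.01, 11.2 and 15.1 FPKM in RA WT. The OIR WT libraries all lay above the RA WT libraries, by a small margin between OIR WT 2 and RA WT 3, and OIR KO overlapped both. OIR WT against RA WT gave a log2 difference of 0.62 (SE 0.26, 95% interval 0.03 to 1.22) that was not called (limma adjusted p = 0.148). Without OIR KO 2, which widens the shared estimate of spread, the same difference passed (limma adjusted p = 0.0314), and it passed in a fit of only the 2 groups (limma adjusted p = 0.049).

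Osmr encodes the oncostatin M receptor chain. Its level was 3.74, 10.1 and 3.46 FPKM in OIR KO, 6.78, 5.42 and 10.4 FPKM in OIR WT, and 1.195, 1.67 and 1.30 FPKM in RA WT. Every retinopathy library lay above every room-air library, and OIR KO 2 and OIR WT 3 were the highest at nearly the same level. The log2 difference was 2.05 in OIR WT against RA WT (SE 0.37, limma adjusted p = 0.00905) and 1.58 in OIR KO against RA WT (SE 0.37, limma adjusted p = 0.0308).

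Il6ra, the chain that binds interleukin-6 itself, was the lowest of the 4 receptor chains among the members. It stood at 0.179, 0.400 and 0.0755 FPKM in OIR KO, at 0.201, 0.105 and 0.237 FPKM in OIR WT, and at 0.0529, 0.0916 and 0.0933 FPKM in RA WT. No library reached 0.5 FPKM. The OIR WT libraries lay above the RA WT libraries, with an exact two-sided permutation p of 0.1, the smallest that 3 against 3 libraries can give, while OIR KO overlapped both.

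Stat3, the transcription factor, had the highest mean of the 8 genes in OIR KO and in OIR WT. It stood at 26.9, 58.3 and 28.9 FPKM in OIR KO, at 48.8, 32.4 and 56.5 FPKM in OIR WT, and at 13.0, 12.7 and 12.7 FPKM in RA WT. Room-air libraries were almost level with each other, and each retinopathy library lay above all of them. The means were 38.1 ± 17.6 FPKM in OIR KO, 45.9 ± 12.3 FPKM in OIR WT and 12.8 ± 0.189 FPKM in RA WT (SD, n = 3 each). The log2 difference was 1.77 in OIR WT against RA WT (SE 0.30, limma adjusted p = 0.00715) and 1.45 in OIR KO against RA WT (SE 0.30, limma adjusted p = 0.0197).

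Socs3, the feedback inhibitor, had the largest ratio of highest to lowest library within OIR KO among the members. It stood at 6.33, 33.2 and 2.90 FPKM in OIR KO, at 25.4, 9.59 and 45.01 FPKM in OIR WT, and at 1.55, 2.01 and 2.15 FPKM in RA WT. All retinopathy libraries lay above all room-air libraries, OIR KO 3 only narrowly, and OIR KO 2 lay between OIR WT 3 and OIR WT 1. The means were 14.1 ± 16.6 FPKM in OIR KO, 26.7 ± 17.7 FPKM in OIR WT and 1.90 ± 0.316 FPKM in RA WT (SD, n = 3 each). OIR WT against RA WT gave a log2 difference of 3.26 (SE 0.83, 95% interval 1.36 to 5.16, limma adjusted p = 0.0333). That call was lost without OIR WT 1 (limma adjusted p = 0.1005), without OIR WT 3 (0.105), without OIR KO 1 (0.0521) and without RA WT 1, RA WT 2 or RA WT 3 (0.0895, 0.091 and 0.0831), with log2 differences from 2.76 to 3.33 in those fits. OIR KO against RA WT gave 1.95 (95% interval 0.05 to 3.85), not called (limma adjusted p = 0.172). Socs3 FPKM as a percentage of Stat3 FPKM was 23.5, 57.0 and 10.03 in OIR KO, 52.0, 29.6 and 79.6 in OIR WT, and 11.9, 15.8 and 17.0 in RA WT. This percentage was higher in each OIR WT library than in any RA WT library, while OIR KO 3 lay below all of them.

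The order of the members by mean level differed between the groups. In OIR KO it ran Stat3 (38.1 FPKM), Il6st (16.2), Socs3 (14.1), Lifr (13.2), Osmr (5.78), Clcf1 (2.56), Lif (0.945) and Il6ra (0.218). In OIR WT it ran Stat3 (45.9 FPKM), Socs3 (26.7), Il6st (20.1), Lifr (13.7), Osmr (7.55), Lif (2.85), Clcf1 (2.35) and Il6ra (0.181). In RA WT, Stat3, Il6st and Lifr stood together at 12.8, 12.8 and 12.4 FPKM with overlapping libraries, and Clcf1 (1.95), Socs3 (1.90) and Osmr (1.39) formed a lower set whose libraries also overlapped. Lif (0.103 FPKM) and Il6ra (0.0793 FPKM) overlapped at the bottom in RA WT. Neighbours whose libraries did not overlap were Stat3 and Il6st in OIR KO, Il6st and Lifr in OIR WT, Lifr and Osmr in both retinopathy groups, and Osmr and Lif and then Clcf1 and Il6ra in OIR WT. In RA WT they were Lifr and Clcf1, and Osmr and Lif.

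Within retinopathy, the knockout was not told from the wild type at any member. In OIR KO against OIR WT, limma called 0 of 7 members at an adjusted p under 0.05, and 1 of 7 (Lif) had an unadjusted p under 0.05. Of all genes tested, 0.134% were called and 9.91% had an unadjusted p under 0.05. All 7 members overlapped between the groups. Lif had a log2 difference of -1.19 (SE 0.46, 95% interval -2.23 to -0.15, unadjusted p = 0.0292, limma adjusted p = 0.447). Socs3 had a log2 difference of -1.31 with a 95% interval of -3.21 to 0.59 (limma adjusted p = 0.659), so neither a large fall nor a small rise lies outside it. The other intervals were -0.995 to 0.35 around -0.32 for Stat3, -1.31 to 0.38 around -0.47 for Osmr and -0.94 to 0.25 around -0.35 for Il6st. Lifr, at -0.05 with an interval of -0.28 to 0.18, was the most narrowly bounded, and Clcf1 stood at 0.11.

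The size of these differences depended on single libraries. Leaving out OIR WT 3, the highest OIR WT library for Lif, Socs3, Osmr, Stat3 and Il6st, makes them smaller. For example, the Socs3 log2 difference of OIR WT against RA WT was 3.26 with OIR WT 3 and 2.76 without it. Leaving out OIR KO 2, the highest OIR KO library for each of these genes, makes them larger. Without that library the log2 difference was -1.62 for Lif (limma adjusted p = 0.168), -2.24 for Socs3 (0.214), -0.93 for Osmr (0.168), -0.67 for Stat3 (0.206) and -0.65 for Il6st (0.198), and again no member was called.

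Knockout retinas with retinopathy were also set against wild-type room air, where genotype and retinopathy differ together. Here 2 of the 8 members were called higher, Osmr and Stat3, and none lower, against 4.75% of all genes called higher. The OIR KO libraries lay above all RA WT libraries for 4 of the 7 members tested (Lif, Osmr, Stat3 and Socs3), against 17.3% of all genes. Of these, Lif again entered the test only through retinopathy libraries. Both calls held without OIR KO 2, with log2 differences of 1.10 for Stat3 (limma adjusted p = 0.0194) and 1.12 for Osmr (limma adjusted p = 0.0348). They were lost when a room-air library was left out, with limma adjusted p from 0.0522 to 0.0672 for Stat3 and from 0.0622 to 0.0974 for Osmr, and for Osmr also without OIR KO 1 (0.0522). This comparison shares the RA WT libraries with the wild-type comparison and the OIR KO libraries with the genotype comparison, and that Lif and Socs3 were called in OIR WT and not in OIR KO is no test of a difference between them.

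**Figure D2:**
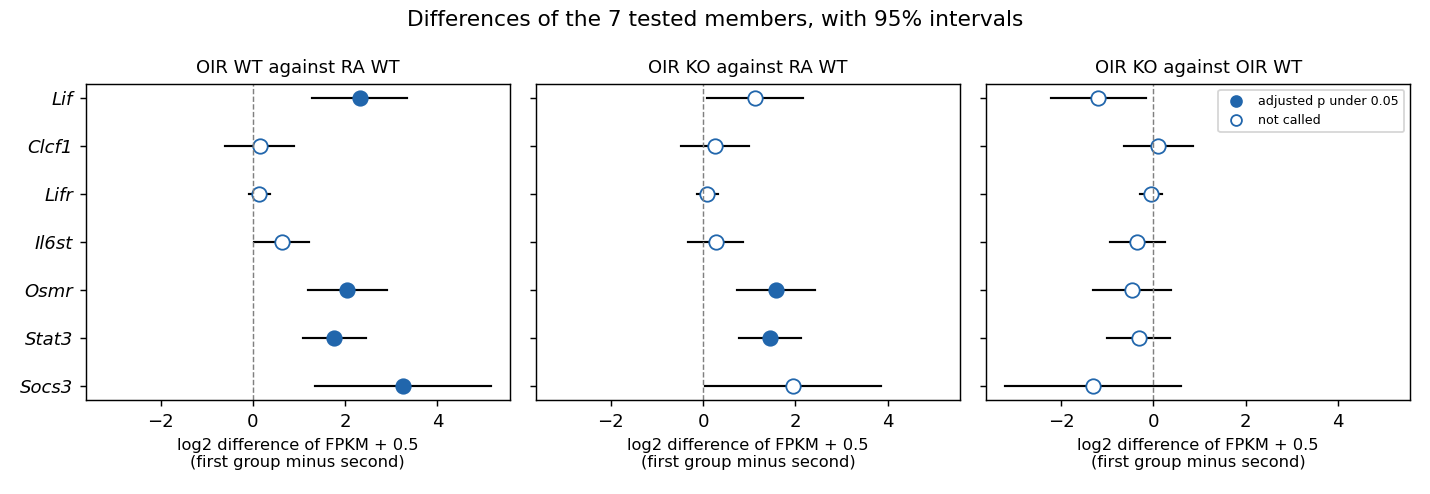
Log2 differences of FPKM + 0.5 (horizontal axes, first group minus second) for the 7 members tested, with 95% intervals as bars, filled where the limma adjusted p was under 0.05. Lif, Osmr, Stat3 and Socs3 were called in OIR WT against RA WT, Osmr and Stat3 in OIR KO against RA WT, and none in OIR KO against OIR WT.

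The other ligands of the family were low or did not pass the test in OIR WT against RA WT. Of 9 further ligands described, 3 passed the filter on low values and limma called 0 of them, with 0 at an unadjusted p under 0.05. Cntf, ciliary neurotrophic factor, was the most abundant listed ligand, with 5.37, 8.12 and 5.25 FPKM in OIR KO, 6.87, 4.88 and 5.80 FPKM in OIR WT, and 4.04, 5.88 and 2.51 FPKM in RA WT. Its groups overlapped and it was not called (log2 difference 0.51 in OIR WT against RA WT, limma adjusted p = 0.236). Ctf1, cardiotrophin 1, and Ebi3, a subunit of interleukin-27, were not called either, at log2 differences of -0.30 (limma adjusted p = 0.382) and -0.04 (limma adjusted p = 0.936).

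Interleukin-6 and oncostatin M themselves were near the lower end of the table. Il6 was listed at 0 in 7 of 9 libraries and reached 0.119 FPKM in OIR WT 1 and 0.0358 FPKM in OIR KO 2. Osm stood at 0.067, 0.120 and 0 FPKM in OIR KO and at 0.219, 0.0538 and 0.282 FPKM in OIR WT, and was listed at 0 in all 3 RA WT libraries. Il27, the other subunit of interleukin-27, stood between 0.112 and 0.135 FPKM in OIR KO and between 0.0605 and 0.238 FPKM in OIR WT, and was listed at 0 in RA WT. For Osm and Il27 the exact two-sided permutation p in OIR WT against RA WT was 0.1. Il11 and Ctf2 stayed at or below 0.324 FPKM in all libraries, and Il31 was listed at 0 in all.

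Of 5 further receptor chains, 2 passed the filter and 1 of them, Cntfr, was called lower. Cntfr encodes the chain that binds ciliary neurotrophic factor and CLCF1. It stood at 15.3, 19.4 and 21.5 FPKM in OIR KO, at 19.9, 21.8 and 18.3 FPKM in OIR WT, and at 25.04, 31.1 and 31.7 FPKM in RA WT. Both retinopathy groups lay below all room-air libraries. The log2 difference was -0.53 in OIR WT against RA WT (SE 0.14, limma adjusted p = 0.0292) and -0.64 in OIR KO against RA WT (limma adjusted p = 0.0201), while 7.92% and 5.69% of all genes were called lower in these comparisons. Without RA WT 2 or RA WT 3 the first call was lost (adjusted p 0.0902 and 0.097), as it was without OIR WT 1 or OIR WT 3 (0.088 and 0.0983). The second was lost without RA WT 2, RA WT 3 or OIR KO 1 (0.0607, 0.0767 and 0.0646). Il11ra1, which binds interleukin-11, was not called, with 14.7, 13.3 and 15.0 FPKM in OIR KO, 12.9, 12.9 and 12.5 FPKM in OIR WT, and 13.5, 16.8 and 14.5 FPKM in RA WT (log2 difference -0.22 in OIR WT against RA WT, limma adjusted p = 0.162). Il11ra2, Il27ra and Il31ra did not pass the filter.

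Of 8 further kinases and STAT factors tested (9 described), 1 was called higher in OIR WT against RA WT and none lower, with a median log2 difference of 0.16 against 0.02 over all genes. Over all genes 8.04% were called higher, so this share is near the background. Jak3, a kinase best known from lymphocytes, stood at 3.56, 8.52 and 2.53 FPKM in OIR KO, at 7.94, 3.88 and 7.78 FPKM in OIR WT, and at 1.03, 1.203 and 1.24 FPKM in RA WT. Its retinopathy libraries all lay above room air (log2 difference 2.03, SE 0.39, limma adjusted p = 0.0113, in OIR WT and 1.54, limma adjusted p = 0.0408, in OIR KO). The second of these calls was lost without OIR KO 1, OIR KO 2 or any single RA WT library, among others, at adjusted p up to 0.106. The kinases that gp130 is known to use were not called: the log2 difference in OIR WT against RA WT was 0.04 for Jak1 (limma adjusted p = 0.789), 0.26 for Jak2 (0.143) and 0.17 for Tyk2 (0.378). In OIR KO against RA WT, Jak3 was called higher and Stat5b, named after its value was seen, lower (log2 difference -0.37, limma adjusted p = 0.0237). The Stat5b call was lost without RA WT 1 (0.0543), RA WT 3 (0.073), OIR KO 1 (0.0757) or OIR KO 2 (0.0868), and in a fit of only the 2 groups (0.0571).

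Beside Socs3, all 15 listed inhibitors were tested, and 3 were called higher in OIR WT against RA WT and none lower, with a median log2 difference of 0.30, against 8.04% of all genes called higher and an all-gene median of 0.02. Ptpn2, a phosphatase of JAK and STAT proteins, stood at 26.3, 30.5 and 21.5 FPKM in OIR KO, at 31.3, 32.2 and 33.2 FPKM in OIR WT, and at 25.2, 21.5 and 17.1 FPKM in RA WT. OIR WT lay above RA WT in every library (log2 difference 0.60, limma adjusted p = 0.026) and OIR KO overlapped room air. The relatives Socs6 and Socs7 rose by log2 differences of 0.48 and 0.32 (limma adjusted p = 0.0392 for each). The calls of Ptpn2, Socs6 and Socs7 were each lost in several fits without 1 library, where between 0 and 3 inhibitors were called. Socs6 was also lost with quantile normalization (limma adjusted p = 0.0613) and median centring (0.0529), and Socs7 with median centring (0.0668). Both were lost in a fit of only the 2 groups, with the replicate number as a block, and with a covariate from Y-linked genes. No inhibitor was called in OIR KO against RA WT, and none of the ligands, receptor chains, kinases, STAT factors or inhibitors of these lists was called in OIR KO against OIR WT, where Socs7, named after its value was seen, had an unadjusted p under 0.05.

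**Figure D3:**
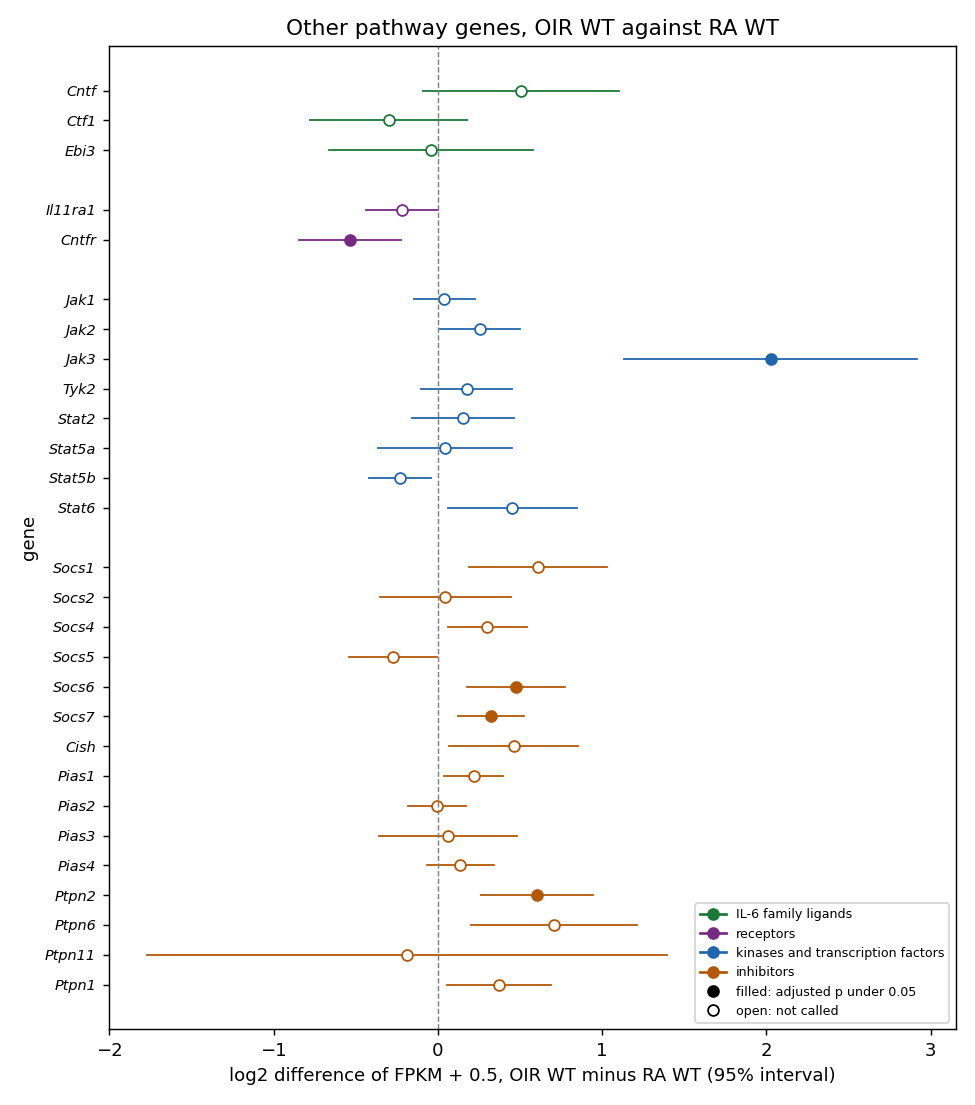
Log2 difference of FPKM + 0.5 in OIR WT minus RA WT (horizontal axis) with 95% intervals for the further pathway genes described here, by role, filled where the limma adjusted p was under 0.05. Jak3 lies farthest to the right at 2.03, Cntfr is the only filled point left of 0, at -0.53, and the interval of Ptpn11 is the widest.

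Most genes of a list of STAT3 targets rose in wild-type retinopathy. The list holds 25 genes known as STAT3 targets in one tissue or another, many of which other factors also control. It was drawn up with earlier results of these data known. All 25 were tested, and 16 were called higher in OIR WT against RA WT and none lower, against 8.04% of all genes called higher. Of these 16, Bcl3, Timp1 and Icam1 reached 0.5 FPKM in fewer than 3 RA WT libraries. They thus passed the filter on low values only with retinopathy libraries, which favours a difference. The median log2 difference of the 25 was 1.41, against 0.02 over all genes. The 16 were Bcl3, Junb, Fos, Myc, Cebpd, Icam1, Timp1, A2m, Gfap, Serpina3n, Nfil3, Gadd45b, Vegfa, Fgf2, Edn2 and Egr1. Without RA WT 2 the count was 9 and without OIR WT 1 it was 10.

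Edn2, endothelin 2, made by photoreceptors of the stressed retina, had the largest difference of the list. It stood at 38.8, 128 and 18.4 FPKM in OIR KO, at 118, 36.5 and 116 FPKM in OIR WT, and at 0.555, 0.577 and 1.37 FPKM in RA WT. Each retinopathy library was above each room-air library by more than the whole range of room air. The log2 difference was 5.96 in OIR WT against RA WT (SE 0.72, limma adjusted p = 0.00293) and 5.15 in OIR KO against RA WT (limma adjusted p = 0.00618).

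Bcl3, a partner of NF-kappaB subunits, stood at 5.56, 32.6 and 2.98 FPKM in OIR KO, at 35.0, 7.76 and 37.4 FPKM in OIR WT, and at 0.304, 0.246 and 0.929 FPKM in RA WT. Serpina3n, a secreted protease inhibitor of reactive glia, stood at 11.6, 81.8 and 5.80 FPKM in OIR KO, at 61.3, 16.5 and 74.9 FPKM in OIR WT, and at 0.939, 0.835 and 3.05 FPKM in RA WT. Cebpd, a transcription factor of the acute-phase response, stood at 15.5, 70.1 and 11.02 FPKM in OIR KO, at 66.4, 25.7 and 81.0 FPKM in OIR WT, and at 2.14, 3.38 and 4.99 FPKM in RA WT. In all 3 genes OIR KO 2 was the highest OIR KO library, OIR WT 2 was the lowest OIR WT library, and neither retinopathy group overlapped room air. In OIR WT against RA WT the log2 difference was 4.55 for Bcl3 (SE 0.88, limma adjusted p = 0.0131), 4.50 for Serpina3n (SE 0.97, limma adjusted p = 0.0191) and 3.77 for Cebpd (SE 0.70, limma adjusted p = 0.0115). Bcl3 did not pass when RA WT 2 (limma adjusted p = 0.051) or OIR WT 1 (0.0531) was left out. Serpina3n did not pass when OIR WT 1 or 3, or RA WT 1 or 2, was left out (0.0584 to 0.0699).

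In OIR KO against RA WT, 8 of the 25 targets were called higher and none lower, against 4.75% of all genes called higher, with a median log2 difference of 1.48 against 0.02. They were Junb, Fos, Myc, Icam1, A2m, Vegfa, Edn2 and Egr1, of which Icam1 passed the filter only with retinopathy libraries. The count was 5 without RA WT 1 or RA WT 3 and 15 without OIR KO 3. Without OIR KO 2, Junb (limma adjusted p = 0.057) and Myc (0.105) were no longer called. In OIR KO against OIR WT, limma called 0 of the 25, with a median log2 difference of -0.47 against -0.0027 over all genes. Of the 25, Vegfa, the main vessel growth factor, and Bcl2l1, a survival gene, had an unadjusted p under 0.05 there, against 9.91% of all genes, and both are named after their values were seen. Vegfa stood at 191, 245 and 161 FPKM in OIR KO, at 270, 278 and 267 FPKM in OIR WT, and at 69.7, 69.2 and 62.4 FPKM in RA WT. Its OIR KO libraries all lay below its OIR WT libraries (unadjusted p = 0.00619, limma adjusted p = 0.305), while 7.98% of all genes had such a gap downward. Bcl2l1 had the opposite gap, between 26.9 and 29.1 FPKM in OIR KO and between 21.6 and 25.6 FPKM in OIR WT (unadjusted p = 0.0364, limma adjusted p = 0.468), while 9.73% of all genes had such a gap upward.

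**Figure D4:**
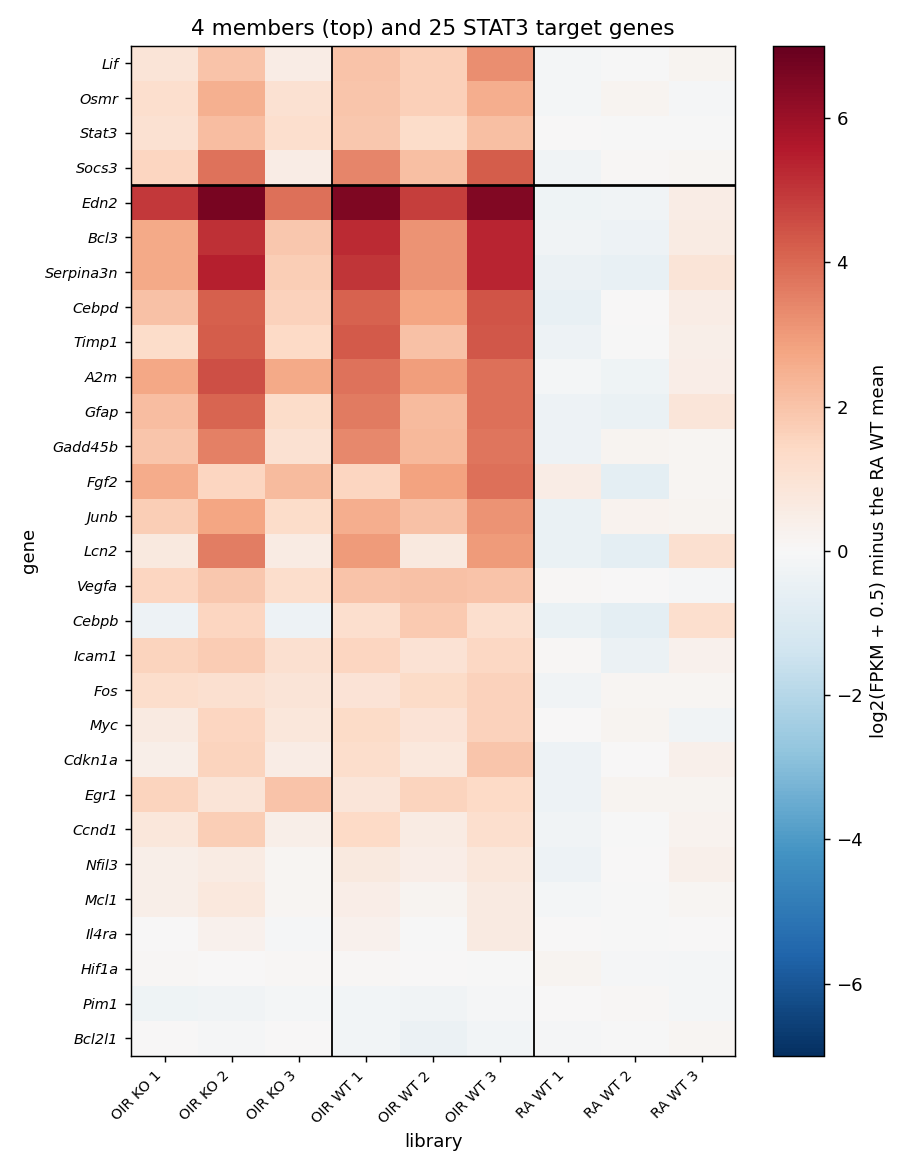
log2(FPKM + 0.5) minus the RA WT mean (colour) in each of the 9 libraries for the 4 members called in OIR WT against RA WT (top) and the 25 STAT3 target genes, ordered by their difference. OIR KO 2, OIR WT 1 and OIR WT 3 are the darkest columns for Socs3, Edn2, Bcl3, Serpina3n and Cebpd, while Vegfa is nearly even across the OIR WT columns.

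Several members ranked the retinopathy libraries alike. Socs3 ran in the order OIR WT 3, OIR KO 2, OIR WT 1, OIR WT 2, OIR KO 1 and OIR KO 3, and Osmr ran in the same order. OIR KO 2 was the highest of its group for 19 of the 25 targets (76%), against 37.6% of all genes, and OIR WT 2 the lowest of its group for 19 of 25, against 43.8% of all genes. The highest library of a group exceeded the lowest by a factor of 11.4 in OIR KO, 4.69 in OIR WT and 1.39 in RA WT for Socs3, and by 2.16, 1.75 and 1.03 for Stat3. For Lifr the factors were 1.12, 1.19 and 1.21. For Lif, below 0.5 FPKM in every room-air library, they were 5.44, 3.69 and 3.85. The median log2 range within a group over the 7 members was 1.11 in OIR KO, 0.89 in OIR WT and 0.36 in RA WT, and over all genes it was 0.27, 0.27 and 0.32. By this median the spread of the members was wide in retinopathy and close to that of other genes in room air, a description for which no test was run. Over the 25 targets the median range was 1.12 in OIR KO, 0.83 in OIR WT and 0.69 in RA WT.

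Markers of some other cell types, but not of all, moved with these values. Over all genes, 8.04% were called higher and 7.92% lower in OIR WT against RA WT, and 4.75% higher in OIR KO against RA WT. The summed level of 3 erythrocyte markers was 70.8, 689 and 71.2 FPKM in OIR KO, 737, 325 and 894 FPKM in OIR WT, and 57.0, 50.5 and 95.4 FPKM in RA WT, so the same retinopathy libraries were high as for Socs3, and 3 of 3 were called higher in OIR WT against RA WT. The 4 astrocyte markers, which include the target Gfap, summed to between 34.7 and 190 FPKM in OIR KO, 59.8 and 162 FPKM in OIR WT, and 13.9 and 27.4 FPKM in RA WT, with 3 of 3 tested called higher in OIR WT. Gfap alone stood at 173 FPKM in OIR KO 2 and 148 FPKM in OIR WT 3, most of the sum there. Pax2 was too low to be tested, with means of 0.404 FPKM in OIR KO, 0.255 in OIR WT and 0.288 in RA WT. The 8 markers of microglia and macrophages summed to between 12.3 and 16.6 FPKM in OIR KO, 14.9 and 18.9 FPKM in OIR WT, and 7.76 and 9.71 FPKM in RA WT, with 2 of 7 tested called higher in each retinopathy group. Alas2 among the erythrocyte markers, and Aif1 and Itgam among those of microglia and macrophages, passed the filter only with retinopathy libraries. For the lists above the part in the results was not tested. The 9 Müller glia markers went the other way, between 1894 and 2021 FPKM in OIR KO, 1362 and 1733 FPKM in OIR WT, and 2162 and 2751 FPKM in RA WT, with 6 of 9 called lower and 1 higher in OIR WT against RA WT. The 6 endothelial markers summed to between 89.6 and 110 FPKM in OIR KO, 61.3 and 82.8 FPKM in OIR WT, and 50.1 and 66.2 FPKM in RA WT, with 5 of 6 called higher in OIR KO and 3 of 6 in OIR WT, each against RA WT. The 4 neutrophil markers summed to at most 1.17 FPKM in any library, none passed the filter, and 3 of the 4 were listed at 0 in every RA WT library. The 4 retinal pigment epithelium markers, with Rlbp1 shared with Müller glia, summed to 264, 171 and 251 FPKM in OIR KO. They summed to 124, 218 and 148 FPKM in OIR WT and to between 268 and 342 FPKM in RA WT. OIR KO 2 was the lowest and OIR WT 2 the highest of its group. The 3 lens markers summed to 0.269, 11.8 and 2.38 FPKM in OIR KO and 18.8, 3.48 and 0.990 FPKM in RA WT. In OIR WT they reached at most 0.554 FPKM. The part of both lists was not tested.

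Genes whose pattern over the 9 libraries was most like that of Lif or Socs3 were found by the root mean square difference of centred log2 values among 13706 genes with a mean of at least 1 FPKM. For Lif they were Flnc (0.25), an actin crosslinker, Tgm2 (0.26), a transglutaminase, Tnfrsf12a (0.27), the TWEAK receptor, Maff (0.29), a transcription factor, and Acta2 (0.30), smooth muscle actin. Tgm2, for example, stood at 4.49, 9.66 and 2.68 FPKM in OIR KO, at 14.5, 8.33 and 22.8 FPKM in OIR WT, and at 1.25, 1.54 and 2.24 FPKM in RA WT. Its highest library was OIR WT 3 and its lowest retinopathy library OIR KO 3, as for Lif. For Socs3 the nearest was a gene model with no Ensembl ID or position in the table (0.20), followed by Gadd45b (0.32), a stress-response gene, Ccl2 (0.37), a monocyte chemokine, Mt2 (0.39), a metallothionein, and Timp1 (0.40), a metalloproteinase inhibitor. Ccl2 stood at 0.615, 3.57 and 0.287 FPKM in OIR KO and at 4.22, 0.642 and 5.61 FPKM in OIR WT, and was listed at 0 in all RA WT libraries. Likeness here is a description with no test, and Gadd45b and Timp1 are also on the target list.

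The motif printed in the Socs3 stretch was also looked for in the targets. In the 250 bases before a RefSeq start it was found in 1 of the 20 target genes with an entry (Icam1), or 5%, against 2197 of 27025 genes (8.13%). That the letters are missing from these windows says nothing of binding elsewhere.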

How the data were processed

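The authors deposited 1 table of FPKM values per gene and library. HISAT2 and GRCm38 are named per the submitters' processing notes, and Trizol extraction and an NEBNext Ultra kit per the labels' protocols. Not given in the sources used here are the version of HISAT2, the quantifying program, the annotation and the strand setting. No count test was planned or run, since the values were expected to be FPKM. Among genes with 1 annotated transcript, 39.1 to 42.7% of low values (up to 20 steps) in each library were whole multiples of 1 step, to within 0.02.

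Genes with at least 0.5 FPKM in at least 3 of 9 libraries (15678 of 25108) were taken as log2(FPKM + 0.5) and fitted with limma 3.58.1 in R 4.3.3, with 1 mean per group, empirical Bayes moderation with trend and robust options, two-sided tests and Benjamini-Hochberg adjustment over all genes tested. The code was tested on simulated data. Members under the filter were compared by exact permutation of FPKM. Coordinates come from GENCODE M21 (22022 of 22036 Ensembl IDs matched) and promoter sequences from RefSeq on GRCm38.p6.

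The members and lists were chosen with earlier results of these data known, and some listed genes are not reported here. Named were all members, ligands and receptor chains, and from each other list the 4 largest differences among genes called in OIR WT against RA WT, plus genes called in OIR KO against OIR WT. The 19 alternatives changed the pseudocount, filter, scaling, samples fitted, covariates or moderation, or left out 1 library.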

Additional observations from a re-analysis of the deposited data

How the results depend on the processing

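Of the 7 members under 19 alternatives, all values of OIR KO against OIR WT stayed uncalled, 123 of 133 in each of the other comparisons kept their call, and no called value of a listed gene changed sign. Lif, Osmr and Stat3 kept their calls in OIR WT against RA WT in all 19. With the replicate number as a block, Socs3 was not called in OIR WT against RA WT (limma adjusted p = 0.0753), nor were Osmr (0.0578) and Stat3 (0.054) in OIR KO against RA WT, where 0 members were called. With a covariate from Y-linked genes, Socs3 had an adjusted p of 0.0797 and 1 member was called in OIR KO against RA WT. Without 1 library each, the members called ranged from 3 to 5 in OIR WT against RA WT and from 0 to 2 in OIR KO against RA WT.

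Over all genes, the number called in OIR WT against RA WT was 1628 with the Y-linked covariate and 1031 to 2814 without 1 library, beside 2503. In OIR KO against RA WT it was 1081 with the block and 709 to 1791 without 1 library, beside 1636. In OIR KO against OIR WT it was 8 with the block, 13 for genes with a mean of at least 1 FPKM, 13 without trend and robust options, and 11 to 42 without 1 library, beside 21. The cause was not tested. Same-numbered samples deviated with correlations from -0.35 to 0.13, which with 3 samples per group does not settle whether the numbers pair the samples.

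With 3 libraries per group and unknown depth, no counting error can be given, and genes below 0.5 FPKM are poorly bounded.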

Other observations

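Ptpn11, which encodes the phosphatase SHP2 that docks on gp130, differed by library within every group. It stood at 6.24, 26.3 and 24.3 FPKM in OIR KO libraries 1, 2 and 3, at 8.11, 22.5 and 26.2 FPKM in OIR WT libraries 1, 2 and 3, and at 9.27, 24.3 and 31.7 FPKM in RA WT libraries 1, 2 and 3. The library numbered 1 was the lowest in each group, by a wide gap, and the gene was not called in any comparison. It was picked out after its values were seen, and the cause was not tested.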
